A study of Mus musculus with 4 samples.

Results

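Death receptors carry an apoptotic signal from the cell surface, and the genes of this pathway were followed in mouse neural stem/progenitor cells (NSPCs) given the poly(ADP-ribose) polymerase (PARP) inhibitor PJ34. The set held 10 genes, chosen by name: the ligands Fasl and Tnfsf10, the receptors Fas and Tnfrsf10b, the adaptors Pidd1 (listed in the files under its older symbol Lrdd), Cradd and Fadd, the kinase Ripk1, the protease Casp8 and its inhibitor Cflar. They were read by 14 of 55681 probes and made up 10 of 36498 gene symbols on the array. The data were 4 expression arrays in 2 colours, from NSPCs of embryos at embryonic day 13.5, all labelled Slc:ICR, that were wild-type (2 arrays) or Trp53-/- (2 arrays), the latter lacking p53 and bred from Trp53-heterozygous mice whose own strain is not given in the sources used here. Both genotypes were grown as neurospheres with EGF and FGF-basic. On every array the RNA of cells given 20 µM PJ34 was labelled with Cy5 and the RNA of untreated control cells of the same genotype with Cy3. The RNA was prepared independently for each array (n = 2 per genotype), and the duration of the treatment behind this RNA is not given in the sources used here. The dyes were never swapped, so within a genotype a dye bias of a probe and the effect of PJ34 cannot be told apart. Such a bias cancels in the difference between genotypes and in a comparison of untreated cells, which all carry the same dye.

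Fas and Tnfrsf10b (the mouse receptor for TRAIL, which Tnfsf10 encodes) are membrane proteins with an intracellular death domain. Bound by ligand, they recruit Fadd, which brings in pro-caspase molecules encoded by Casp8, and the cleaved protease activates the executioner caspases. Cflar encodes FLIP, which resembles the protease of Casp8 without its activity and restrains it at the receptor, and Ripk1 serves both survival and death signals. Pidd1 and Cradd (RAIDD) form with Casp2 a platform inside the cell, the PIDDosome. Fas, Tnfrsf10b and Pidd1 are known target genes of the transcription factor p53, whereas the ligands are made mainly by immune cells.

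The probes behind the main results are given first, since all levels below are hybridization to them. Each line holds the first 30 of the 60 bases of a probe in lower case, 5′ to 3′, as the array design lists them. The probe of Fas lies at chr19:34402164-34402223 on the plus strand of the mouse build mm9, that of Tnfrsf10b at chr14:70184141-70184200 on the plus strand, and those of Pidd1 at chr7:148624416-148624475 and chr7:148624024-148624083 on the minus strand. The exon or untranslated region under each probe was not annotated here. The first Pidd1 line is the probe used for the gene, and the last is a separate probe used as a second reading.
Fas: gaagaccttccattgatggacagttctttt
Tnfrsf10b: gatgtccttttctagtgtgtttgaagccag
Pidd1: aattaagatagctttaaacttgactcgacc
Pidd1, other probe: tgcagacaagtatgcaggcaaaacatccat

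Between 21503 and 24536 probes were well above background in the control channels and between 26075 and 27154 in the PJ34 channels, and no probe was saturated. All 10 neural stem and progenitor markers, such as Nes and Sox2, were well above background in both channels of all 4 arrays. The log2 ratios of the tested genes, 1 probe each, correlated between the 2 wild-type arrays with r = 0.70 and between the 2 Trp53-/- arrays with r = 0.64. These genes are not independent. Trp53-/- replicate 2 stood apart in its PJ34 channel, where the summed level of 5 sex-linked genes was 11.15 (log2) against 8.94 in its own control channel, and the Y-linked Eif2s3y had a log2 ratio of 4.22. On Trp53-/- replicate 1 these sums were 8.91 and 8.83. On replicate 2 the X-linked Xist, which is also in the sum, went the other way. It was at 7.51 in the control channel and at 6.12, not well above background, in the PJ34 channel. The RNAs on replicate 2 thus differed in Xist and in Y-linked genes as well as in treatment. Which embryos each RNA came from is not given in the sources used here. This difference touches every ratio of that array, so the values of the tested genes are given with and without that array. The probe of Trp53 itself was well above background on every array, with untreated log2 levels of 8.28 and 8.51 in wild-type and 7.56 and 7.82 in Trp53-/- NSPCs. This difference of -0.71 did not pass the test (q = 0.0519), and where the probe lies relative to the deleted part of the allele is not known here.

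The receptor gene Fas was upregulated by PJ34 in wild-type NSPCs and not in Trp53-/- NSPCs. Its log2 intensity was 8.11 and 8.45 in the 2 untreated wild-type samples and 9.83 in both PJ34 samples. In Trp53-/- NSPCs it was 6.74 and 6.80 without and 6.27 and 6.53 with PJ34, below all wild-type samples. The log2 ratios were 1.73 and 1.38 in wild-type, a mean 2.94-fold increase (95% interval of the log2 ratio 1.32 to 1.79, limma, q = 1.53e-05). In Trp53-/- they were -0.48 and -0.27, a mean of -0.37 that passed the q threshold (q = 0.0202) but stayed under 2-fold. It was -0.48 without Trp53-/- replicate 2 (q = 0.0492), -1.09 with the scanner software's log ratios (q = 0.0533) and -0.87 with median centring over the kept probes. In the PJ34 channel of Trp53-/- replicate 1 the Fas probe was not well above background. The response of the genotypes differed by 1.93 on the log2 scale (SE 0.15, q = 0.00019502), and by 2.03 without Trp53-/- replicate 2.

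Tnfrsf10b, the other death receptor of the set, was also upregulated in wild-type NSPCs. Untreated wild-type levels were 9.34 and 9.19 and rose to 11.10 and 10.60 with PJ34. The Trp53-/- levels were 7.17 and 7.04 without and 7.21 and 7.24 with PJ34, a range narrower than the gap to the wild-type samples. The wild-type log2 ratios were 1.76 and 1.41, which is a mean 2.998-fold increase (95% interval 1.35 to 1.82, q = 1.53e-05). In Trp53-/- the ratios were 0.04 and 0.20, with a mean of 0.12 whose interval ran from -0.12 to 0.36 (q = 0.236). The difference between genotypes was 1.46 (SE 0.15, q = 0.00122) with all arrays and 1.54 without Trp53-/- replicate 2.

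Pidd1, the death domain adaptor of the PIDDosome, also rose in wild-type NSPCs. Its untreated wild-type levels of 8.09 and 8.49 went to 9.12 and 9.41, whereas in Trp53-/- they were 7.11 and 7.14 without and 7.33 and 7.15 with PJ34. The wild-type log2 ratios were 1.03 and 0.91, a mean increase of 1.96-fold (95% interval 0.76 to 1.18, q = 0.00013), just under the 2-fold limit. The Trp53-/- ratios were 0.22 and 0.02, with a mean of 0.12 (q = 0.21). The genotypes differed by 0.85 (SE 0.14, q = 0.0121), again under 2-fold, and by 0.74 without Trp53-/- replicate 2. The other Pidd1 probe read the same RNA with ratios of 0.97 and 1.00 in wild-type (1.98-fold) and 0.42 and 0.08 in Trp53-/-. Its Trp53-/- mean was 0.25, with an interval from 0.02 to 0.48 (q over all kept probes = 0.0658). On this probe the genotypes differed by 0.73 (q over all kept probes = 0.0353).

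**Figure D1:**
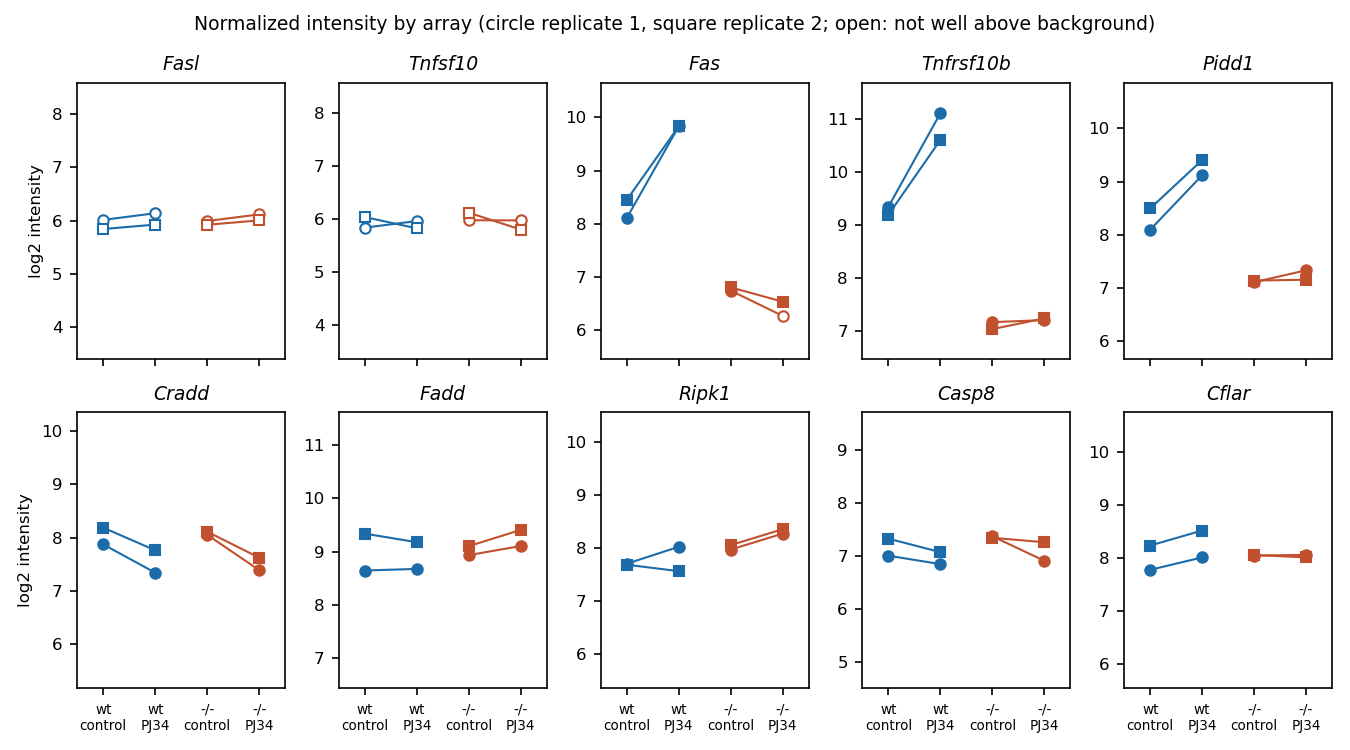
Normalized log2 intensity of the 10 genes in untreated control and PJ34-treated NSPCs, wild-type (wt, blue) and Trp53-/- (-/-, red). Each line joins the 2 channels of 1 array, circles are replicate 1 and squares replicate 2, open symbols were not well above background, and all panels span the same number of log2 units. Fas, Tnfrsf10b and Pidd1 rise in wild-type and lie lower in all Trp53-/- samples, whereas Fasl and Tnfsf10 stay at background throughout.

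Both ligand genes were at background in these cells. Fasl, which encodes the Fas ligand, had log2 levels between 5.84 and 6.14 over all 8 channels, and Tnfsf10 between 5.80 and 6.12. Neither probe (chr1:163711056-163711115 and chr3:27238508-27238567) was well above background in either colour of any array, so neither gene was tested and no fold change is given for them. A transcript that these probes do not reach would not have been seen.

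The adaptors, the kinase, the protease and its inhibitor changed by less than 2-fold in both genotypes. Cradd, the adaptor that links Pidd1 to Casp2, was lower with PJ34 on every array, with log2 ratios of -0.53 and -0.42 in wild-type and -0.66 and -0.49 in Trp53-/-. Its means of -0.48 (q = 0.00325) and -0.58 (q = 0.00185) passed the q threshold, and the genotypes differed by 0.10 with an interval from -0.19 to 0.39 (q = 0.588). This was read at chr10:94637911-94637970. A separate Cradd probe was not kept, being well above background only in the PJ34 channel of Trp53-/- replicate 2.

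Fadd, the adaptor shared by both receptors, had ratios of 0.03 and -0.16 in wild-type and 0.17 and 0.31 in Trp53-/-. Its means of -0.07 (q = 0.352) and 0.24 (q = 0.0579) did not pass the test, and the wild-type minus Trp53-/- difference was -0.30 with an interval from -0.60 to -0.01 (q = 0.248). Casp8, whose product starts the caspase cascade, had ratios of -0.16 and -0.25 in wild-type and -0.46 and -0.08 in Trp53-/-. Neither mean passed (q = 0.111 and q = 0.0552), and the difference of 0.07 had an interval from -0.27 to 0.40. Both intervals of the difference lie within 2-fold of equality. Without Trp53-/- replicate 2 the Trp53-/- value of Casp8 was -0.46 and passed the q threshold (q = 0.0424), while that of Fadd was 0.17 (q = 0.394).

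Ripk1 ratios were 0.32 and -0.12 in wild-type, where the replicates disagreed in sign, and 0.30 on both Trp53-/- arrays. The Trp53-/- mean of 0.30 passed the q threshold (q = 0.0473) and the wild-type mean of 0.10 did not (q = 0.304), but the difference itself was -0.20 with an interval from -0.55 to 0.15 (q = 0.456). Cflar, the inhibitor of the protease, had ratios of 0.23 and 0.28 in wild-type, a mean of 0.26 (q = 0.0366), against 0.01 and -0.04 in Trp53-/- (mean -0.02, q = 0.455). The genotypes differed by 0.27, with an interval from -0.00418 to 0.55 (q = 0.262). Cflar has further probes on the array, and their wild-type means were 0.35 (q over all kept probes = 0.0146) and 0.14 (q = 0.252). The probe with 0.14 was not well above background in any control channel. Without Trp53-/- replicate 2 the Trp53-/- values were 0.30 for Ripk1, which no longer passed (q = 0.219), 0.01 for Cflar and -0.66 for Cradd (q = 0.00584). The differences between genotypes of Cradd, Fadd, Casp8, Ripk1 and Cflar were then between -0.24 and 0.26, and none passed.

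**Figure D2:**
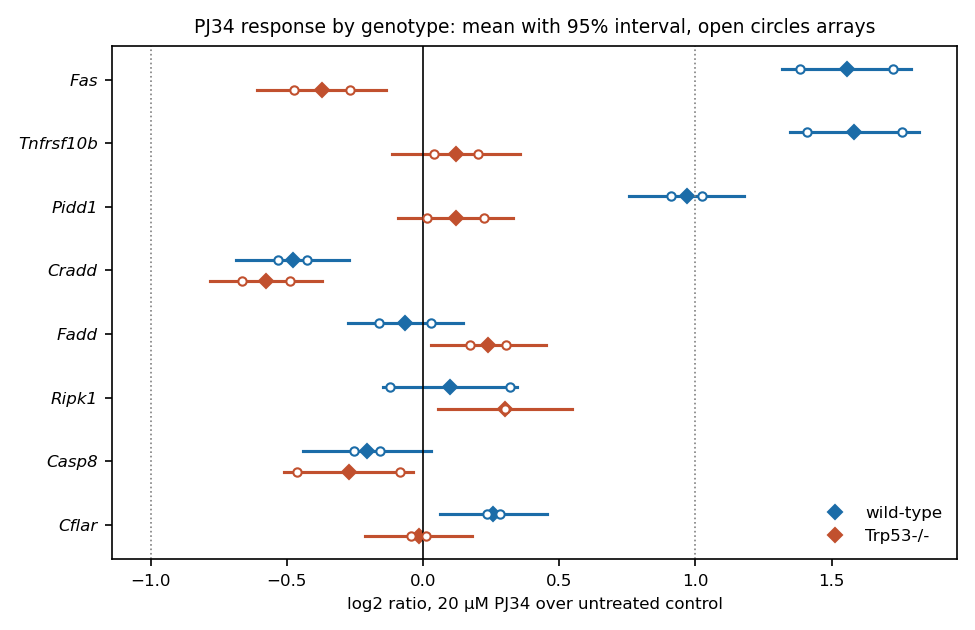
Log2 ratio of 20 µM PJ34 over untreated control for the 8 tested genes in wild-type (blue) and Trp53-/- (red) NSPCs. Diamonds are means, bars 95% intervals from limma and open circles the 2 arrays, with dotted lines at 2-fold. Fas, Tnfrsf10b and Pidd1 separate by genotype, and the other 5 genes stay within 2-fold in both.

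A gene was called when p and q were below 0.05 and the change was over 2-fold. By this rule 2 of the 8 tested genes, Fas and Tnfrsf10b, were called higher in wild-type, against 0.287% of all 20226 tested genes, and 0 were called lower (0.213%). Fas, Tnfrsf10b and Pidd1 are among the genes that the study singled out on the same wild-type arrays, so this count is not independent evidence of their direction. Without the fold limit 4 genes were higher and 1 was lower, where the background was 13.5% and 11.2%. In Trp53-/- NSPCs limma called 0 of 8 (background 0.361%), and 0 with Benjamini-Hochberg adjustment. There, 2 genes were higher and 3 lower at an unadjusted p below 0.05, where 6238 of all 20226 genes passed in either direction. By q without the fold limit 1 was higher (background 12.7%) and 2 were lower (10.4%). In the difference between genotypes Fas and Tnfrsf10b were called (background 0.44% higher). By q without the fold limit Pidd1 was the third, against a background of 1.3% higher. The median log2 ratio of the 8 genes was 0.18 in wild-type and 0.05 in Trp53-/-, and that of all genes 0.03 in both. With the scanner software's own log ratios the differences were 2.90 for Fas and 1.47 for Tnfrsf10b, neither of them called (q = 0.248 and q = 0.266), nor was any other gene. When both channels had to be well above background on all 4 arrays, Fas was not tested.

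The same 3 genes were lower in untreated Trp53-/- NSPCs than in untreated wild-type NSPCs. The untreated levels printed above did not overlap between genotypes for any of them. Nor did those of Ripk1, of Casp8 or of a separate Cflar probe, none of which passed. How many of all genes did not overlap was not counted. Tnfrsf10b was 4.48-fold lower (log2 difference -2.16, 95% interval -2.57 to -1.76, q = 0.00694). Fas was 2.84-fold lower (-1.504, -1.96 to -1.05, q = 0.0137). Pidd1 was 2.25-fold lower (-1.17, -1.65 to -0.70, q = 0.022), and its other probe, with untreated levels of 9.82 and 9.92 in wild-type and 8.24 and 8.28 in Trp53-/-, gave 3.05-fold (q over all kept probes = 0.0113). Thus 3 of 8 were called lower, against 2.03% of all genes, and 0 were called higher (1.94%). From the scanner software's processed control signal the differences were larger, -3.02 for Tnfrsf10b, -2.58 for Fas and -1.78 for Pidd1. Untreated levels are the denominators of the PJ34 ratios, so these comparisons share the control channels.

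The other 5 tested genes did not pass this test. Untreated Casp8 was 7.01 and 7.33 in wild-type and 7.37 and 7.35 in Trp53-/-. These did not overlap, but the difference of 0.19 had an interval from -0.25 to 0.63. For Ripk1 the levels were 7.70 and 7.68 against 7.97 and 8.05, which did not overlap, but the difference of 0.32 had an interval from -0.07 to 0.70 (q = 0.162). Cradd differed by 0.05 (-0.39 to 0.50), Fadd by 0.03 (-0.60 to 0.65) and the main Cflar probe by 0.05 (-0.45 to 0.54). A separate Cflar probe (chr1:58811116-58811175) was higher in Trp53-/- by 0.59, from 6.72 and 6.61 to 7.28 and 7.23, and did not pass the q threshold over all probes (q = 0.0643). The intervals of Fadd and Cradd, which leave room for changes of 1.57-fold and 1.41-fold upward, show how far 2 arrays a genotype can resolve.

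**Figure D3:**
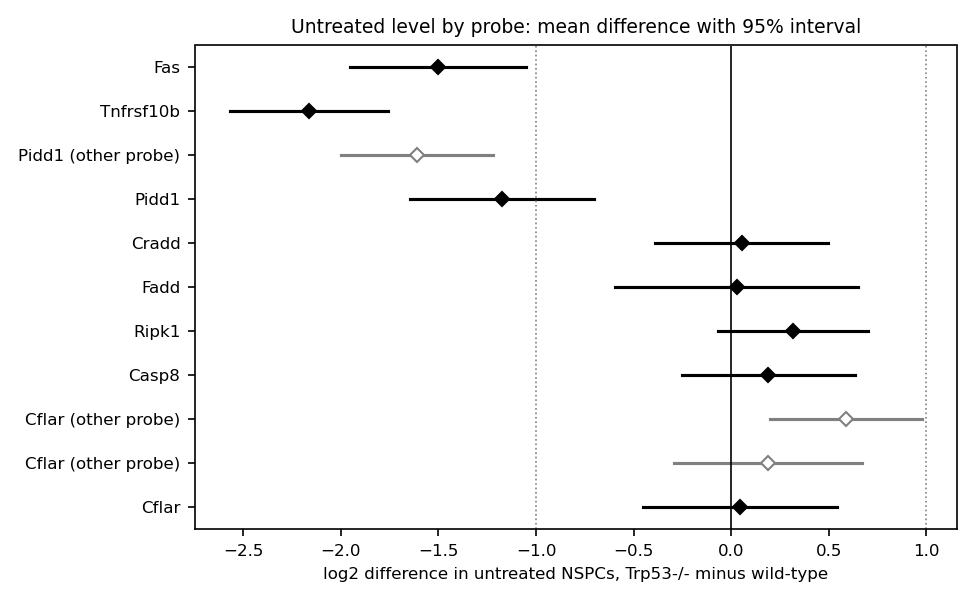
Log2 difference in untreated level, Trp53-/- minus wild-type, for each kept probe of the 8 tested genes, with 95% intervals from limma and dotted lines at 2-fold. Filled diamonds are the probe used for a gene and open grey diamonds its other probes. Fas, Tnfrsf10b and both Pidd1 probes lie between -1.17 and -2.16, and all other probes lie between 0.03 and 0.59.

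The cultures of the genotypes also differed in markers of other cells, and fewer cells of a type and less RNA per cell cannot be told apart in such samples. In untreated Trp53-/- NSPCs 3 of 5 oligodendrocyte markers were called higher than in wild-type, with a summed log2 level of 13.13 to 13.23 against 10.92 to 11.66. Of 5 astrocyte markers 2 were called higher (15.14 to 15.24 against 14.88 to 15.02). Of 6 neuron markers 1 was called higher, and by q without the fold limit 1 was lower. The summed level of the neuron markers was lower in Trp53-/- (12.39 to 12.49 against 12.53 to 13.01). Of 7 markers of microglia and other blood cells 4 were tested and 1 was called lower (12.26 to 12.45 against 13.04 to 13.19), while the defining genes Aif1, Cx3cr1 and Ptprc were never well above background. Of 6 endothelial and mesenchymal markers 2 were tested and 1 was called lower (11.72 to 11.89 against 13.01 to 13.09), with Cdh5, Col1a1, Col3a1 and Dcn never above background. Of 10 neural stem and progenitor markers limma called 0, by Storey's q or Benjamini-Hochberg. At an unadjusted p below 0.05 2 were higher and 1 lower, where 4797 of all 20226 genes passed in either direction. Of 5 sex-linked genes 3 were tested and 2, both Y-linked, were called lower. Eif2s3y was at 8.96 and 8.47 in the untreated wild-type samples and at 6.01 and 6.24 in the Trp53-/- ones, and Ddx3y at 8.25 and 8.06 against 6.04 and 6.17. In both Trp53-/- control channels these genes were not well above background, so the untreated samples differ in Y-linked genes along with genotype, and the effects of genotype and of sex cannot be told apart there. The part of the marker differences in the untreated levels of Fas, Tnfrsf10b and Pidd1 was not tested. The test across untreated samples also rested on both Trp53-/- arrays, because limma called 0 of all genes when either was left out. Then q rose to between 0.118 and 0.41 for the 3 genes while their differences stayed between -1.16 and -2.23.

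Over the 4 conditions the order of the levels was the same at the top for Fas, Tnfrsf10b and Pidd1. Wild-type with PJ34 was highest and untreated wild-type next, and both Trp53-/- conditions followed. Within Trp53-/-, Fas was lower with PJ34 than without, as given above. The 2 conditions of Tnfrsf10b (7.10 and 7.22 on average) and of the main Pidd1 probe (7.12 and 7.24) did not differ beyond their spread in the fit. The Trp53-/- interval of the other Pidd1 probe, given above, lay above 0 but did not pass by q. Even with PJ34, Trp53-/- NSPCs stayed below untreated wild-type NSPCs in all 3 genes, for example 7.21 and 7.24 against 9.19 and 9.34 for Tnfrsf10b. That comparison sets Cy5 levels against Cy3 levels, so a dye bias of a probe does not cancel in it, and it was not tested. For Cflar the levels of all 4 conditions overlapped, with means from 8.003 to 8.26.

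The wider pathway was read from 48 further genes in 6 groups, of which 39 were tested. limma called 0 of the 39 in wild-type, in Trp53-/-, in the difference and in untreated cells, by Storey's q and with Benjamini-Hochberg adjustment alike. By Storey's q, 0.287% of all tested genes were called higher and 0.213% lower in wild-type, and 0.361% were called in Trp53-/-. In the difference 0.44% were called higher, and in untreated cells 1.94% were called higher and 2.03% lower. A count of 0 among 39 genes is near such shares. At an unadjusted p below 0.05, 5 were higher and 7 lower in wild-type, 4 higher and 9 lower in Trp53-/-, 3 higher and 1 lower in the difference, and 5 higher and 2 lower in untreated Trp53-/- NSPCs. Of all 20226 tested genes, both directions together, 6426, 6238, 2903 and 4797 had such a p in the same order. By q without the fold limit, 5 rose (12.8%) and 6 fell (15.4%) in wild-type, against 13.5% and 11.2% of all genes. In Trp53-/- 3 rose (7.69%) and 7 fell (17.9%), against 12.7% and 10.4% of all genes. Their median log2 ratio was 0.05 in wild-type and -0.02 in Trp53-/-, against 0.03 for all genes in both.

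Among receptors, Tnfrsf25 (DR3) had a wild-type mean of 0.64 (q = 0.00929) and Tnfrsf21 (DR6) of 0.37 (q = 0.0124). In Trp53-/- Tnfrsf21 was at 0.02 (q = 0.446) and Tnfrsf25 at 0.20 (q = 0.211). The Tnfrsf25 ratio was 0.60 on Trp53-/- replicate 1, near the wild-type ratios of 0.53 and 0.75, and -0.21 on replicate 2. The decoy receptor gene Tnfrsf22 fell by 0.47 in wild-type and by 0.44 in Trp53-/-. The ligand genes Tnf, Lta and Tnfsf15 were not tested, being too dim, nor were the receptors Tnfrsf1b, Tnfrsf11b, Tnfrsf26 and Ngfr. In the group of complex assembly and ubiquitin, Cyld, a deubiquitinase that edits the chains on Ripk1, rose by 0.54 in wild-type (q = 0.00139) and by 0.77 in Trp53-/- (q = 0.000397). Traf2 fell by 0.56 and by 0.32, and Rnf31, the catalytic subunit of the linear ubiquitin ligase, fell by 0.37 and by 0.48. These changes had the same sign in both genotypes, and each stayed under 2-fold. On Trp53-/- replicate 1 alone the ratios were 0.83 for Cyld, -0.21 for Traf2, -0.47 for Rnf31 and -0.57 for Tnfrsf22.

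Among the caspases and effectors, Casp2, the partner of Pidd1 and Cradd, fell by 0.56 in wild-type (q = 0.00608). In Trp53-/- it was at -0.24 (q = 0.108). Bid, which links the receptor to the mitochondrion once cleaved, rose by 0.42 in wild-type and by 0.39 in Trp53-/-. Xiap, an inhibitor of the executioner caspases, fell by 0.41 and by 0.27. On Trp53-/- replicate 1 alone Bid was at 0.36 and Xiap at -0.12. In the NF-kappaB branch Ikbkb rose by 0.36 and Nfkb1 fell by 0.38 in wild-type, and Rela fell by 0.33 in Trp53-/- (-0.32 on replicate 1 alone). In the other genotype each had the same sign without passing, at 0.18 for Ikbkb, -0.23 for Nfkb1 and -0.19 for Rela. All 3 necroptosis genes and all 6 genes listed as brakes at the receptor, which is only a label of the list, were tested. None of them passed in either genotype. These pathway genes were picked from their q values, and no difference between genotypes passed for any of them.

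**Figure D4:**
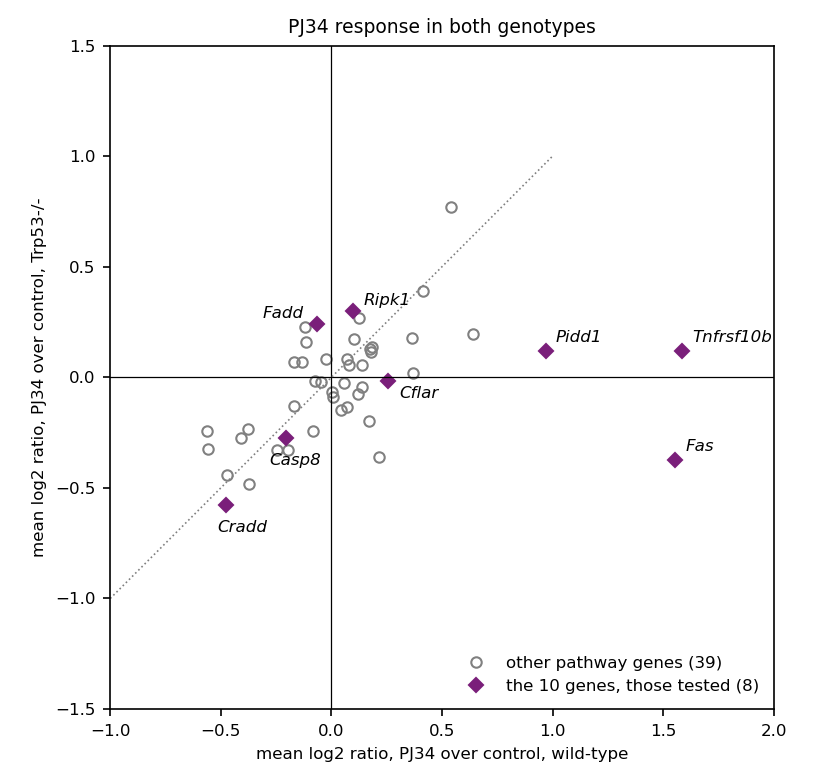
Mean log2 ratio of PJ34 over control in wild-type (horizontal) and Trp53-/- (vertical) NSPCs for the 8 tested death receptor genes (diamonds) and 39 other pathway genes (open circles), with a dotted line where both are equal. Fas, Tnfrsf10b and Pidd1 lie to the right of all other points, at wild-type means of 1.55, 1.58 and 0.97.

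The genes whose 4 log2 ratios lay closest to those of each receptor and of Pidd1 were sought by Euclidean distance over the 4 arrays among 20220 candidates. The closest to Fas were 1700007K13Rik (distance 0.19), Celf5, Svop, Dcxr and Ccng1 (0.46), the last encoding cyclin G1. The closest to Tnfrsf10b were Dcxr (0.28), Bbc3, Trp53inp1, Pmaip1 and Plxdc2 (0.40), and Bbc3 and Pmaip1 encode the BH3-only proteins PUMA and NOXA. The closest to Pidd1 were a non-coding RNA probe with no gene symbol (0.095), Trim11, Slc19a2, Abat and Mdm2 (0.27), the last encoding the ubiquitin ligase of p53. Untreated levels, which share the control channel with the ratios, varied widely among these genes. Dcxr differed by -3.21 on the log2 scale (Trp53-/- minus wild-type) and Ccng1 by -2.74, both called, whereas Celf5 differed by -0.25, Trim11 by -0.29 and Mdm2 by -0.50, none of these 3 being called. Abat was 0.80 higher and not called.

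The promoters of Fas and Pidd1 are shown because both genes rose with PJ34 in wild-type and were lower in untreated Trp53-/- NSPCs. Each line gives the 250 bases before the RefSeq start site on GRCm38.p6, 5′ to 3′ along the gene, for Fas at chr19:34290409-34290658 on the plus strand and for Pidd1 at chr7:141444026-141444275 on the minus strand.
Fas: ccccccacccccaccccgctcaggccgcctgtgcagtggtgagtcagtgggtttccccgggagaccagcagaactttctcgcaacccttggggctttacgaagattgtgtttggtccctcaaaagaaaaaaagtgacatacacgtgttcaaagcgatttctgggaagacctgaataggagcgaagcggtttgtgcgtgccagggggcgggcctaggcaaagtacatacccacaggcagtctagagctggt
Pidd1: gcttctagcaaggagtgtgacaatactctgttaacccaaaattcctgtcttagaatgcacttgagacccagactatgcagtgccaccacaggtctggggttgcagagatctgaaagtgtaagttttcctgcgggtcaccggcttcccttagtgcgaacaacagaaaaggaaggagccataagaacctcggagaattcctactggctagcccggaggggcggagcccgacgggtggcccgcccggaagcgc
The RefSeq table held 10 promoters of 9 of the 10 genes, and Tnfrsf10b had no entry. The p53 half-site of 10 letters was searched in these 250 bases. It reads the same as a pattern on both strands, so 1 search covers both. It was found in 2341 of 32851 promoters (7.13%) and, of the 10 promoters, in that of Fasl, whose probe was at background. A match in capitals would have marked it in the lines above, and there is none. No match says only that these letters are not in this window.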

How the data were processed

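RNA of wild-type and Trp53-/- NSPCs, with PJ34 in Cy5 and without in Cy3, was hybridized to 4 Agilent SurePrint G3 Mouse GE arrays. The authors scanned them and deposited the output of Feature Extraction 10.7.3.1, per the submitters' processing notes. The intensity values deposited by the authors, mean spot brightness and median local background, were used uncorrected. The log10 ratios deposited by the authors, which that software background-subtracts and dye-normalizes, were used only as an alternative. A deposited table with 4 numbered columns was not used, since no array could be matched to them.

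Normexp of limma 3.58.1 (R 4.3.3, offset 50) corrected the background. Ratios were normalized by loess within arrays, with control spots and outlier spots (228 to 276 per array) given no weight, and replicate spots were averaged by probe. Kept were 27035 of 55681 probes, those with 1 or both colours well above background on each of the 2 arrays of a genotype, and these gave 20226 genes. A gene was read from its brightest kept probe, but Fas, Tnfrsf10b and Pidd1 from the probe that the study lists. Untreated levels used the control channel after loess and limma's Aquantile between arrays. limma's lmFit and eBayes were fitted over all 4 arrays, with Storey's q (lambda 0.05 to 0.95) and calls at p and q below 0.05 and over 2-fold, and all q values were computed over all genes tested. Intervals cover 95%. The number of arrays limits the precision, and each array had its own slide, so slide could not be a block. Log2 values of levels are of probes and were not compared between genes.

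On simulated arrays with 27029 probes, 100 of 100 changes of 1.5 (log2) in wild-type were recovered with 2 false calls, and so were 100 of 100 placed in Trp53-/-, with 2 false calls, and for the untreated comparison 97 of 100 with 23 false calls. The noise was drawn independently for each probe, without differences in batch or sex. Only changes of 1.5 and 2.5 were placed, so the recovery of smaller ones, such as those of Pidd1 or Cradd, was not tested. The members and lists were chosen with earlier results of these data known. Genes were named by rule: the 10 genes with all their probes, pathway genes called in any comparison (there were none), Trp53, and the 5 nearest genes by log2 ratios. The pathway genes named in the text passed q without the fold limit, and were chosen after their values were seen. Alternatives were other background corrections, centring, filters, probe choices and adjustments, a replicate block and leaving out each array.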

Additional observations from a re-analysis of the deposited data

Results flagged for a closer look

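The response of Fas to PJ34 differed between wild-type and Trp53-/- NSPCs by 1.93 on the log2 scale (SE 0.15, limma, q = 0.00019502), with the ratio above 0 on both wild-type arrays and below 0 on both Trp53-/- arrays. The response of Tnfrsf10b differed by 1.46 (SE 0.15, q = 0.00122), with both wild-type arrays above both Trp53-/- arrays. Both are results of the test of the difference itself. Trp53-/- replicate 2, whose PJ34 channel stood apart in sex-linked genes, gave a Fas ratio of -0.27 and a Tnfrsf10b ratio of 0.20, against -0.48 and 0.04 on replicate 1.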

How the results depend on the processing

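Of the called results, those of Fas and Tnfrsf10b in wild-type kept their direction and their call under every alternative in which they were tested. The log ratios of the scanner software called 0 of the 8 genes for the difference, where Fas was 2.90, Tnfrsf10b 1.47 and Casp8 -0.0602, and Fas in Trp53-/- was then -1.09 (q = 0.0533). The strict filter on dim probes, which left Fas untested, gave 1 called gene in wild-type and 1 in the difference. When any fold change was allowed 5 of the 8 genes passed in wild-type and 3 in Trp53-/-, and 11 and 10 of the pathway list. Median centring over all probes shifted the median of all genes to 0.46 in wild-type and 0.63 in Trp53-/-, so its values are read relative to that. It called 1 of the pathway list in wild-type and 5 in Trp53-/-, all higher. Of all 20226 tested genes it called 1176 higher and 2 lower in wild-type, and 3407 higher and 3 lower in Trp53-/-. It reversed Fadd (0.49) and Casp8 (0.0561) in wild-type, Cflar (0.56) and Casp8 (0.0907) in Trp53-/-, and Cradd (-0.00781) and Casp8 (-0.0346) in the difference. Median centring over the kept probes reversed Fadd in wild-type (0.0667) and, in Trp53-/-, Tnfrsf10b (-0.11) and Pidd1 (-0.10). Pidd1 passed 2-fold in wild-type under 5 alternatives, at 1.00 to 1.501, and without wild-type replicate 2 (1.03), and at 1.18 in the difference with centring over the kept probes. The scanner software's processed control signal called 1 of the pathway list lower in untreated cells, and 259 higher and 553 lower of all 20226 tested genes. It turned Cradd to -0.0646 and made the differences of Fas (-2.58), Tnfrsf10b (-3.02) and Pidd1 (-1.78) larger. The mean of a gene's probes turned Cflar in Trp53-/- to 0.00353. The cause of these shifts was not tested.

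Leaving out each array in turn gave 2 to 3 called members in wild-type, 0 in Trp53-/-, 2 in the difference and 0 to 3 in untreated cells, and 0 of the pathway list throughout. The 0 came without either Trp53-/- array, when no gene at all was called. Without wild-type replicate 2 the untreated difference of Pidd1 was -0.97, under 2-fold. Ranges that crossed 0 were -0.12 to 0.32 for Ripk1 and -0.16 to 0.0303 for Fadd in wild-type, -0.0444 to 0.0121 for Cflar in Trp53-/-, -0.42 to 0.0185 for Ripk1 and -0.12 to 0.26 for Casp8 in the difference, and -0.32 to 0.37 for Fadd, -0.18 to 0.27 for Cflar and -0.10 to 0.21 for Cradd in untreated cells.

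Same-numbered arrays deviated with a correlation of -0.18 in the ratios and 0.08 in the control levels. These values rest on 2 arrays per genotype and on genes that are not independent. They therefore cannot tell whether same-numbered arrays shared a batch. With the replicate number as a block 2 members were called in wild-type, 0 in Trp53-/-, 2 in the difference and 3 in untreated cells, as without it, and the crossed pairing, chosen after seeing the data, gave 2, 0, 2 and 3.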
